A study of Mus musculus with 2 samples.

Results

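Collagens and the glycoproteins that organise them form the extracellular matrix of the cornea. Fibrillar collagens make up the stromal lamellae, collagen IV, nidogens and perlecan build the basement membranes, and beaded filaments, elastic fibre proteins and matricellular proteins lie between and beside them. In the cornea the regular packing of thin fibrils keeps the stroma transparent, and 2 specialised basement membranes carry the epithelium and the endothelium. Matricellular proteins such as thrombospondins, tenascin C and SPARC bind to this scaffold and are known for roles in wound repair. The genes described here were chosen by name from the arrays: names of the form of a collagen chain, names starting with Thbs, Lox, Fbln, Fbn, Nid or Tnc, and Fn1, Sparc, Postn, Bgn, Eln and Hspg2. The rule found 53 names on 67 spots among 14773 named genes, and Fn1 was not among the 53. Of these names, 4 belong to proteins that are not structural matrix (Col4a3bp, a ceramide transfer protein, LOX5_MOUSE, a lipoxygenase, Loxhd1, and Tncc, a synonym of the troponin C gene Tnnc1) and are given apart, which leaves 49 matrix genes on 61 spots. The rule itself uses names and no measured value.

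The arrays compared the spontaneously degenerative cornea with the unaffected cornea of Balb/c mice that had disease in a single eye. Their total RNA was set against each other on 2 spotted arrays read in Cy5 and Cy3. Array 1 had Cy5 on the degenerative and Cy3 on the normal cornea, and the dyes were exchanged on array 2. The sources used here do not give the age, sex or number of the mice, nor whether animals were pooled. As the arrays are a dye swap they count as 1 replicate, which leaves no error between animals, so the differences below have no test and no replicate check. A ratio is the authors' normalized log2 ratio of degenerative over normal cornea, and ± is the SD of the 2 arrays, which measures technical spread between dye orientations only. An intensity is the deposited fluorescence of a spot after background subtraction. Tissues are said not to overlap where both intensities of 1 tissue exceed both of the other. That describes unnormalized values of 1 replicate, was not counted over all genes and is no measure of a difference between animals. In whole-tissue RNA, fewer cells of a type and less RNA per cell cannot be told apart.

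A gene counted as measured if at least 1 tissue was above background on each array, with background set from 632 spots named Empty. The limits ran from 290 to 789 intensity units over the channels. By this filter 7896 named genes and 25 of the 49 matrix genes were measured. All 4 channels were above background for 20 of the 25, and none was saturated. Markers of the labelled tissue were bright on both arrays, with intensities of 71584 (degenerative) and 71440 (normal) on array 1 for Krt12, the keratin of corneal epithelium, which is close to saturation. The RNA also held transcripts of other eye tissues. The summed intensity of 8 measured photoreceptor markers (of 10 listed) was 42737 and 42953 in the degenerative cornea (arrays 1 and 2) and 149805 and 129940 in the normal cornea. For 9 of 10 lens markers it was 98526 and 103956 in the degenerative cornea and 28368 and 27897 in the normal cornea. The photoreceptor list includes Rlbp1, a gene of Müller glia and pigment epithelium.

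No matrix gene reached a 2-fold difference on both arrays. Over all measured genes 0.317% were at least 2-fold higher and 0.709% at least 2-fold lower on both arrays, so that 0 of 25 does not set these genes apart from that background. At a smaller size, a log2 ratio of at least 0.5 on both arrays, 3 of 25 matrix genes were higher (Col3a1, Col6a1 and Thbs4), against 1.13% of all genes, and 0 were lower, against 1.94%. Counting direction alone, 13 of 25 lay above 0 on both arrays, against 34.6% of all genes, 3 lay below 0 on both arrays, against 32.9%, and 9 had opposite signs on the arrays. The median ratio of the 25 genes was 0.20, with medians of 0.24 on array 1 and 0.085 on array 2, beside a median of 0.0081 over all 7896 genes. Among the 20 genes with all 4 channels above background, 11 lay above 0 on both arrays, against 37.1% of 6752 genes held to the same filter, and 3 below 0, against 32.6%.

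**Figure D1:**
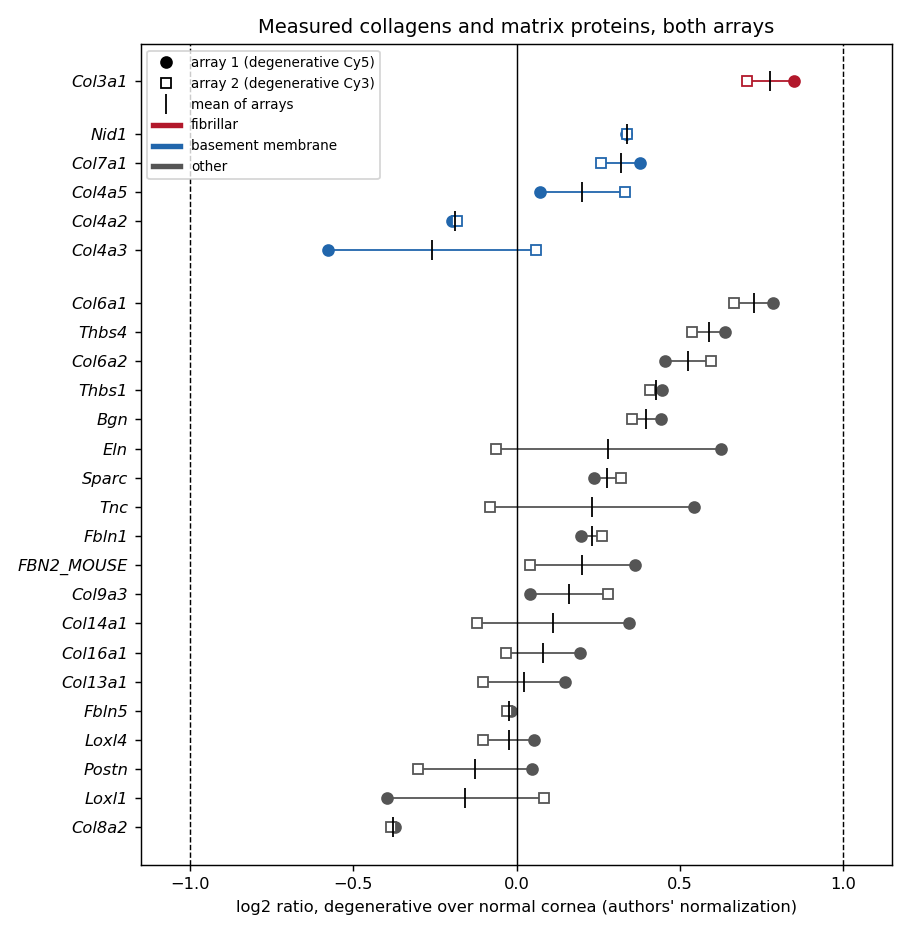
Normalized log2 ratio (degenerative over normal cornea, horizontal axis) of each of the 25 measured matrix genes on array 1 (filled circles) and array 2 (open squares), grouped by class, with a black tick at the mean and dashed lines at the 2-fold limit. Col3a1 and Col6a1 lie farthest to the right with both arrays near each other, no gene reaches the dashed lines, and Eln, Tnc and Col4a3 span 0.

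Of the fibrillar collagens, which assemble into the banded fibrils of the stroma, Col3a1 alone was measured. It encodes the chain of collagen III, a fibrillar collagen of compliant tissues and of healing wounds. The Col3a1 spot had intensities of 7033 and 7013 in the degenerative cornea and 4011 and 3808 in the normal cornea (arrays 1 and 2). The degenerative channel was the brighter one under both dyes, and the tissues did not overlap. The normalized ratios were 0.85 and 0.71, a mean of 0.78 ± 0.10 or 1.71-fold, which ranked 47 from the top among the 7896 genes. Before any normalization the intensity of Col3a1 was 1.75 times that of the normal cornea on array 1 and 1.84 times on array 2. The other 5 fibrillar chains with a spot, Col2a1, Col5a3, Col11a1, Col24a1 and Col27a1, were not above background by the filter, with a highest intensity of 623 for any of their spots. Col24a1 came nearest to it, above background in both tissues on array 1 and in neither on array 2, with ratios of -0.24 and -0.42 for that spot. The main stromal chains Col1a1, Col1a2, Col5a1 and Col5a2 were not among the names the rule found, so the fibrillar class rests on a single gene.

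Collagen VI forms beaded microfibrils between the fibrils from chains encoded by Col6a1, Col6a2 and Col6a3, and Col6a1 ranked next to Col3a1 among the measured matrix genes. The Col6a1 spot had intensities of 4147 and 4297 in the degenerative cornea and 2767 and 2287 in the normal cornea. For Col6a2 they were 1275 and 1491 in the degenerative cornea and 1076 and 800 in the normal cornea. Both spots were brighter for the degenerative cornea under either dye. The ratios of Col6a1 were 0.79 and 0.66 (mean 0.73 ± 0.09, 1.65-fold, rank 55), and those of Col6a2 were 0.45 and 0.60 (mean 0.52 ± 0.10, 1.44-fold, rank 144). The spots of Col6a3, the largest of these chains, were not above background, with no intensity over 329, so that subunit could not be compared.

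The promoters of these 3 genes are shown because they had the highest ratios among the collagens, and that of Col8a2 because its ratio was the lowest. Each line holds 250 bases before and 50 after the annotated start, from RefSeq on GRCm38.p6, 5′ to 3′ on the gene's strand. The positions are chr1:45311288-45311587 (plus strand) for Col3a1, chr10:76725995-76726294 (minus) for Col6a1, chr10:76623581-76623880 (minus) for Col6a2 and chr4:126286544-126286843 (plus) for Col8a2. Capitals mark, on either strand, TATAAA (the TATA box), CCAAT (the CCAAT box), GGGCGG (the GC box), CAGACA (letters bound by SMAD proteins) and TGANTCA (the AP-1 site).
Col3a1: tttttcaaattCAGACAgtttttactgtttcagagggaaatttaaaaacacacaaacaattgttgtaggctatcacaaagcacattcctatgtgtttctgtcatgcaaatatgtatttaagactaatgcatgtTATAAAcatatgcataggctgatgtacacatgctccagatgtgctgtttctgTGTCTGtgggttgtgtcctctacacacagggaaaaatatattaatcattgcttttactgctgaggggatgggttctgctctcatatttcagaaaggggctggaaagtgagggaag
Col6a1: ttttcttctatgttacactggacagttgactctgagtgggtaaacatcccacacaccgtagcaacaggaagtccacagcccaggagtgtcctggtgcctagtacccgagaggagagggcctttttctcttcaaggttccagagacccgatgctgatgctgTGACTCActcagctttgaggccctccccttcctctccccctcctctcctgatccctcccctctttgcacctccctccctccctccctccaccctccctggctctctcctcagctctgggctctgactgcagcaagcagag
Col6a2: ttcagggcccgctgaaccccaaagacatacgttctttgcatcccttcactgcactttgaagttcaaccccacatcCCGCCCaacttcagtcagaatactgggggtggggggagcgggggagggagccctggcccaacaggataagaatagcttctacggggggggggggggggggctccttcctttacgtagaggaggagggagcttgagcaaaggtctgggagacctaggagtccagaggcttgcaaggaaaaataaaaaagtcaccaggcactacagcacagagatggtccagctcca
Col8a2: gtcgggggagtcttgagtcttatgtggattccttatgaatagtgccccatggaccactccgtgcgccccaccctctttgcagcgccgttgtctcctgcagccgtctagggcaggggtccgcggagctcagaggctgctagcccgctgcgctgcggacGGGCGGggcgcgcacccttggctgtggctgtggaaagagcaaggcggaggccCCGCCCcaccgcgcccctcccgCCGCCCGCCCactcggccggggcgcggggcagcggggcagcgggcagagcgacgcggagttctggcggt
The 3 collagens that lay above 0 on both arrays with the largest ratios shared no motif of this set. Col3a1 held 1 TATAAA and 2 CAGACA, in a window with 37.7% G and C. Col6a1 held 1 TGANTCA (57.3% G and C) and Col6a2 1 GGGCGG (56.7%). Col8a2 held 4 GGGCGG, some of them overlapping, in a window with 71.7% G and C, beside a median of 52.7% over all 32851 windows. A window was matched by symbol for 18 of the 25 measured matrix genes. Over these, GGGCGG was found for 13 genes (38.2% of all 27025 genes with a window), CCAAT for 7 (41.1%), CAGACA for 7 (23.6%), TATAAA for 4 (15.7%) and TGANTCA for 1 (8.97%). A match is a match of letters and is no measure of binding.

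**Figure D2:**
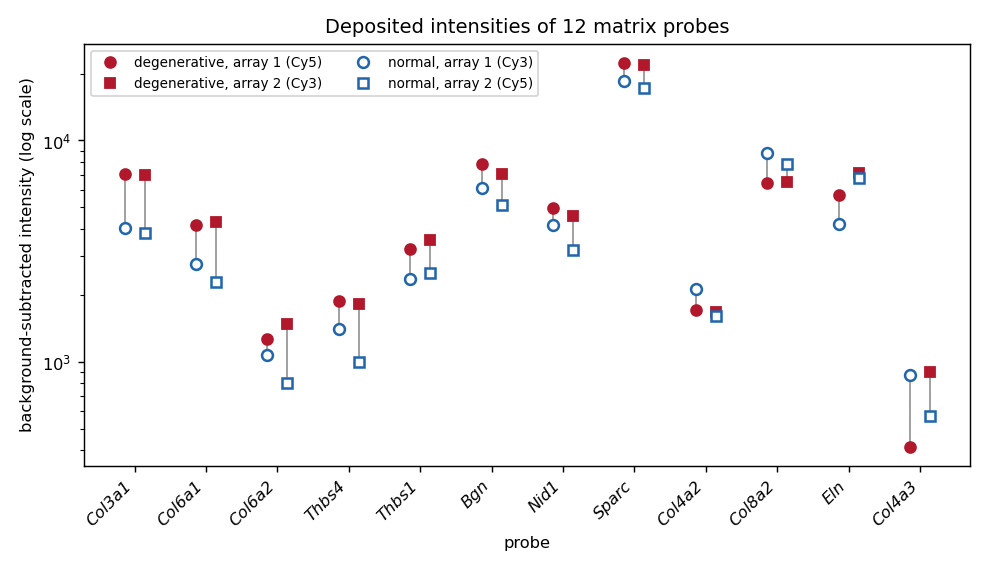
Deposited background-subtracted intensity (log axis) of 12 matrix probes, with filled red symbols for the degenerative and open blue symbols for the normal cornea, circles for array 1 and squares for array 2. For Col3a1, Col6a1, Col6a2, Thbs4, Thbs1, Bgn, Nid1, Sparc and Eln the red symbol lies above the blue one on both arrays, for Col8a2 below it on both arrays, and for Col4a2 and Col4a3 the order changes with the dye.

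Among matricellular proteins, the thrombospondins had the largest ratios, and Thbs4 lay between Col6a1 and Col6a2. Thbs4, a thrombospondin of tendon and muscle matrix, had intensities of 1893 and 1820 in the degenerative cornea and 1416 and 996 in the normal cornea. Thbs1, a thrombospondin that inhibits angiogenesis and can activate latent TGF-beta, had 3232 and 3548 in the degenerative cornea against 2381 and 2509. In neither gene did the tissues overlap. The Thbs4 ratios were 0.64 and 0.54 (mean 0.59 ± 0.07, rank 96), and the Thbs1 ratios 0.44 and 0.41 (mean 0.43 ± 0.03, rank 262). Sparc, a collagen-binding glycoprotein also known as osteonectin, was the brightest matrix gene, at 22334 and 21966 in the degenerative cornea and 18577 and 17233 in the normal cornea. Its ratio was 0.28 ± 0.06, with the same sign on both arrays. Tnc, tenascin C of remodelling tissue, lay near the background limit, with intensities of 311 and 535 in the degenerative cornea and 326 and 421 in the normal cornea. The degenerative cornea was above background on array 1 only and the normal cornea on array 2 only, and the Tnc ratios of 0.54 and -0.08 had opposite signs. Postn, periostin, had ratios of 0.05 and -0.30. Thbs2 and Thbs3 were not measured. Thbs2 had intensities of 396 and 617 in the degenerative cornea against 413 and 175 in the normal cornea. It was above background in the degenerative cornea alone on array 1 and in neither tissue on array 2. Its ratios were 0.43 and 1.23, the second from channels that were both below their limits.

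The small leucine-rich proteoglycan Bgn, biglycan, had intensities of 7818 and 7047 in the degenerative cornea and 6113 and 5086 in the normal cornea, which did not overlap. Its ratio was 0.40 ± 0.06, or 1.32-fold. Markers of keratocytes, the cells that make the stroma, had the opposite sign: 6 of 9 were measured, 5 of them lay below 0 and 0 above 0 on both arrays, and the median was -0.20. Thy1, which retinal ganglion cells also express, was called lower (-1.70 ± 0.29). Decorin, Dcn, a proteoglycan of the same family, had a ratio of -0.17 ± 0.01, and Ptgds, a prostaglandin synthase of keratocytes that is also made in other eye tissues, -0.93 and -0.92 on arrays 1 and 2. The summed intensity of the keratocyte markers was 71915 and 72772 in the degenerative cornea and 93024 and 96304 in the normal cornea. The part of these markers in the collagen ratios was not tested.

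Basement membrane genes had small ratios in both directions. Of 9 with a spot 5 were measured, with a median of 0.20, and 3 lay above 0 on both arrays, 1 below and 1 with opposite signs. Nid1, the nidogen that links the laminin and collagen IV networks, had intensities of 4950 and 4580 in the degenerative cornea and 4133 and 3214 in the normal cornea. The tissues did not overlap, and its ratios of 0.34 and 0.34 were the closest of any measured matrix gene. Col7a1, the collagen of the anchoring fibrils that fasten the epithelium to the stroma, had a ratio of 0.32 ± 0.08, from a spot in a print block where many Empty spots gave signal. Within collagen IV the mean ratios of the 3 measured chains differed in sign, but in each chain the brighter tissue changed with the dye. Col4a5, a chain of the network found in specialised basement membranes such as Descemet's membrane, had ratios of 0.07 and 0.33. Its intensities were 2877 and 3398 in the degenerative cornea and 3058 and 2365 in the normal cornea, which overlapped. The partner of Col4a5 in that network, Col4a3, had -0.58 and 0.06. The Col4a3 intensities were 415 and 898 in the degenerative cornea and 875 and 570 in the normal cornea, so that the Cy3 channel was the brighter one on each array and the tissues overlapped. NID2_MOUSE, Hspg2 and Col15a1 were not above background.

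Col4a1 and Col4a2, the chains of the widespread collagen IV network, lie head to head on chromosome 8, and their RefSeq promoter windows of 300 bases overlap by 78. The pair could not be compared as such. Col4a2 had intensities of 1708 and 1689 in the degenerative cornea and 2137 and 1618 in the normal cornea, which overlapped, and ratios of -0.20 and -0.18 (mean -0.19 ± 0.01). Its intensity ratio before normalization was 0.80 on array 1 and 1.04 on array 2, so the arrays differed in sign before the normalization. Col4a1 stayed below the limits in every channel, with a highest intensity of 243, and its ratios of 1.27 and -1.61 contradict each other.

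Col8a2, the short-chain collagen of the hexagonal lattice of Descemet's membrane, had the lowest mean ratio of the measured matrix genes. Its intensities were 6441 and 6511 in the degenerative cornea and 8783 and 7839 in the normal cornea. The normal cornea was the brighter tissue under both dyes without overlap, and the ratios were -0.37 and -0.39 (mean -0.38 ± 0.01, 1.30-fold lower). This lay at percentile 5.27 of all measured genes. The membrane is made by the corneal endothelium, and 4 of 7 markers fixed for that layer were measured, with a median of -0.63. Car2, a carbonic anhydrase above background in the degenerative cornea on array 1 only, had -1.95 ± 0.24, Cdh2, N-cadherin, -0.86 ± 0.09 and the water channel Aqp1 -0.40 ± 0.10. Their summed intensity was 24877 and 24496 in the degenerative cornea and 30060 and 28188 in the normal cornea. These markers are also expressed in the retina or ciliary body. Measured genes of the photoreceptor list had a median of -1.74 and pigment cell markers one of -0.85. The part of any of them in the Col8a2 ratio was not tested. The only other short-chain collagen among the names found, Col10a1, was not measured.

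Of the elastic fibre genes 6 of 11 were measured, with 2 above 0 and 1 below 0 on both arrays and 3 with opposite signs. Eln, the elastin gene, had 5701 and 7135 in the degenerative cornea and 4188 and 6736 in the normal cornea, and over the arrays the tissues overlapped. Its ratios were 0.62 and -0.06, the widest gap of any measured matrix gene (mean 0.28 ± 0.49). Before normalization the intensity of Eln was 1.36 times that of the normal cornea on array 1 and 1.06 times on array 2. The arrays thus had the same sign before the normalization. Fbln1, fibulin 1, a calcium-binding glycoprotein of elastic fibres and basement membranes, was read by 3 spots. All 3 lay above 0 on both arrays, with 0.09 and 0.16, 0.13 and 0.17, and 0.37 and 0.46, the last from a print block with signal in Empty spots. Fbln5, fibulin 5, which is needed for elastic fibre assembly, had -0.02 and -0.03. FBN2_MOUSE, named for fibrillin 2, had 0.36 and 0.04. Its degenerative channel was above background on array 1 only and its normal channel on array 2 only. The cross-linking enzyme gene Loxl1 had -0.40 and 0.08, and Loxl4 0.05 and -0.10. The lysyl oxidase gene Lox, Loxl2, Loxl3, Fbn1 and Fbln2 were not above background.

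The remaining collagens showed no shared direction. Col9a3 is a chain of collagen IX, which decorates fibrils as a collagen with interrupted triple helices. It was read by 2 spots that disagreed, each above background in the degenerative cornea on 1 array. The first had intensities of 498 and 740 in the degenerative cornea and 570 and 374 in the normal cornea, with ratios of 0.39 and 0.43. For the second they were 345 and 762 against 692 and 413, with ratios of -0.31 and 0.13. In both spots the tissues overlapped over the arrays. Col14a1 and Col16a1, of the same fibril-associated group, had ratios of 0.34 and -0.12 and of 0.19 and -0.03. The transmembrane collagen Col13a1 had 0.15 and -0.10, from the same kind of print block as Col7a1. Col9a1, Col9a2, Col12a1, Col19a1, Col23a1 and Col25a1 were not measured. Col19a1 shows what the filter removes: its ratios were 2.31 and 2.28, but they came from intensities of 26 and 167 in the degenerative cornea and -117 and -3 in the normal cornea.

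**Figure D3:**
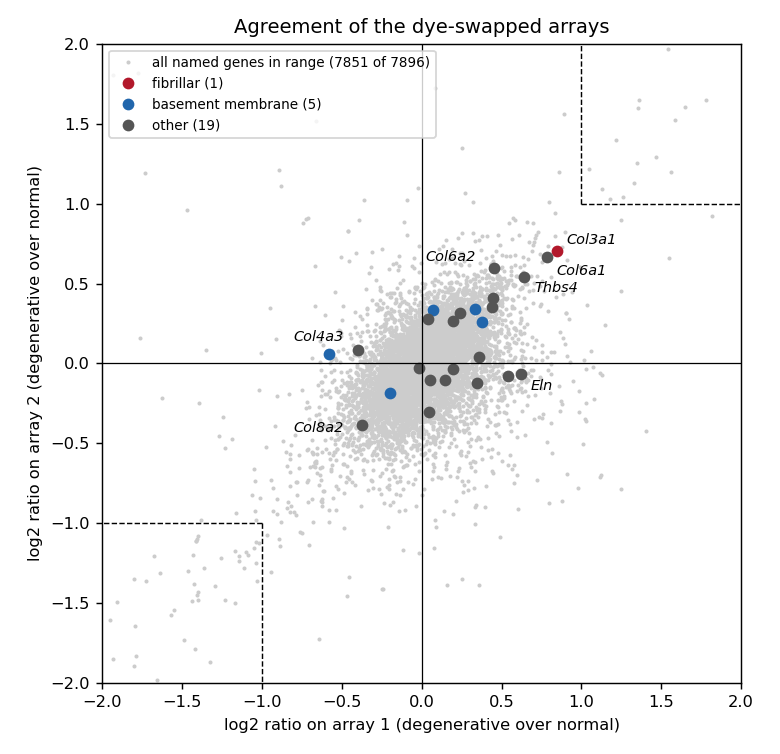
Log2 ratio of each named gene on array 1 (horizontal) and array 2 (vertical), grey for the 7851 of 7896 genes within the plotted range and coloured for the measured matrix genes, with dashed corners at the 2-fold limit on both arrays. Col3a1, Col6a1, Thbs4 and Col6a2 lie at the upper right edge of the grey cloud and outside the corner, and Eln and Col4a3 lie on opposite sides of 0 on the arrays.

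Agreement between the arrays followed brightness. The 11 matrix genes above the median signal of all measured genes had a median ratio of 0.28, and 8 lay above 0 on both arrays, 2 below and 1, Eln, with opposite signs. The 14 dimmer genes had a median of 0.096, and 5 lay above 0, 1 below and 8 had opposite signs. Among all genes, 1001 of 3948 in the brighter group and 1569 of 3948 in the dimmer group had opposite signs. The ratio was larger on array 1 than on array 2 for 16 of the 25 matrix genes and for 4463 of all 7896. Across the 25 genes, which are not independent replicates and share both hybridisations, Pearson's r between the arrays was 0.60, and across all genes 0.43.

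Genes that process, bind or regulate collagen were examined beside the matrix genes. Of 12 measured genes for collagen processing, 0 were called, 7 lay above 0 and 2 below it on each array, and their median was 0.075. Tgm2, the cross-linking transglutaminase, had 0.33 ± 0.20, Ppib, the prolyl isomerase cyclophilin B, -0.32 ± 0.15, and Pcolce2, an enhancer of procollagen cleavage, -0.16 ± 0.13. Of 10 matrix receptors, 0 were called, 7 lay above 0 and 1 below 0, with a median of 0.18. The heparan sulfate proteoglycan Sdc1 had 0.45 ± 0.07, the integrin subunit Itgb1 0.40 ± 0.04 and the hyaluronan receptor Cd44 0.39 ± 0.01. These receptors are abundant in epithelium. Of the 7 epithelial markers, Krt12, Krt5, Aldh3a1 and Tkt were near the highest intensity in both tissues, which compresses their ratios towards 0. Krt14, a keratin of basal epithelium that was near that ceiling in the degenerative cornea, had ratios of 0.74 and 0.49, Pax6 0.09 and 0.20 and Clu 0.14 and 0.11. The part of the epithelium in the receptor and collagen ratios was not tested.

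TGF-beta signalling genes, which drive collagen synthesis in many tissues, had 10 measured genes with a median of 0.0027, 2 above 0 and 3 below 0 on both arrays and 0 called. Ltbp1, which anchors latent TGF-beta in the matrix, had 0.51 ± 0.05. Ccn2, connective tissue growth factor and a common target of the pathway, had -0.38 ± 0.05 and the inhibitory Smad6, above background in the degenerative cornea on array 1 only, -0.26 ± 0.11. The ligand Tgfb1 had ratios of 0.02 and -0.08, and Tgfb2, Tgfb3, Tgfbr1 and Tgfbr2 were not above background. Among 20 other matrix glycoproteins, 9 lay above 0 and 6 below it on each array, for a median of 0.13. Matn4, a matrilin that bridges collagen networks, had 0.51 ± 0.03, while Smoc1, a SPARC-related protein, was above background in the normal cornea alone, with intensities of 721 and 459 there and 278 and 395 in the degenerative cornea, so no exact ratio is given. Vtn, vitronectin, was the called gene, with -1.89 ± 0.23, beside the genes of the photoreceptor list, of which 8 of 8 measured were called lower.

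**Figure D4:**
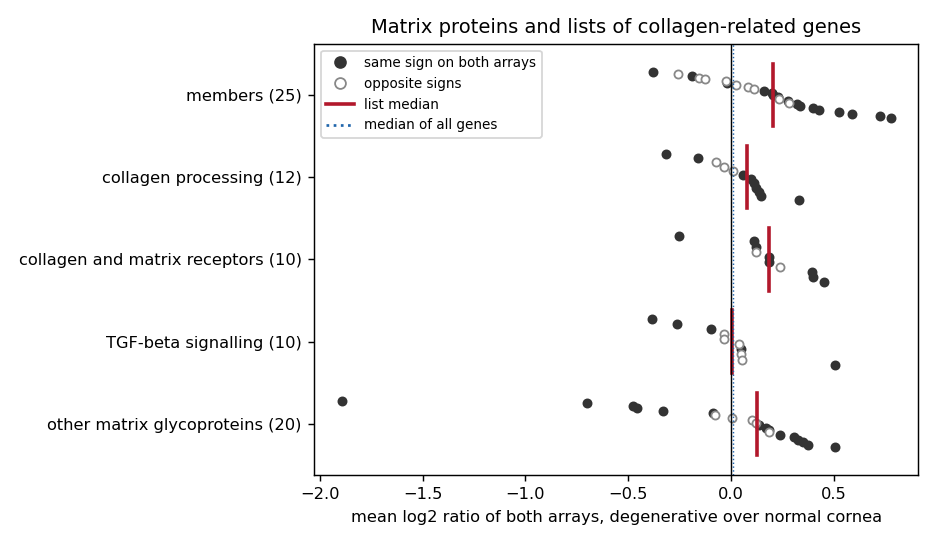
Mean log2 ratio of both arrays (horizontal axis) for each measured gene of the matrix set and of 4 lists of related genes, filled where the arrays had the same sign and open where they did not, with a red bar at each list's median and a dotted line at the median of all genes. The matrix set and the receptors lie to the right of the dotted line by their medians (0.20 and 0.18), the TGF-beta list lies on it, and the far left point is Vtn.

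Many markers of other tissues that make collagen had no spot under their name or were not above background. In the cartilage list 6 of 8 genes had a spot under their name and 3 were measured, all with opposite signs on the arrays. Acan and Hapln1 were not above background. Of the skeletal muscle list 7 of 8 had such a spot and 3 were measured, with a median of -0.24. Ckm and Myh4 were not above background. In the list of myofibroblasts and smooth muscle, 4 of 6 had such a spot, Acta2 not among them. Of these 2 were measured, Myh11 with 0.47 ± 0.15 and Tagln with -0.10 ± 0.07. The macrophage list had such a spot for 6 of 7, with 2 measured and a median of 0.0078. In the blood endothelium list 3 of 8 were measured, of which Cldn5 and Flt1 passed the filter through the normal cornea alone, with no degenerative channel above its limit, while Pecam1 and Cdh5 were not above background in either tissue by the filter. The conjunctival list had 6 of 7 measured and a median of 0.15, with 3 above 0 and 2 below 0 on both arrays. Pigment cell genes were measured for 3 of 7, all below 0 on each array. The part of these tissues in the collagen ratios was not tested.

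Of the 4 names of other proteins, Tncc had -0.19 and -0.53, LOX5_MOUSE 0.55 and -0.16, while Col4a3bp and Loxhd1 were not above background. With them the median over 27 measured names was 0.20 and the count of 13 above 0 on both arrays was the same.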

How the data were processed

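For each spot the 2 arrays gave an intensity in Cy5 and in Cy3 and a normalized log2 ratio, also written as a linear ratio, per the file headers. The intensities deposited by the authors were background-subtracted, since some lie below 0. The sources used here name neither the scanner nor the normalization method. Deposited log2 ratios were used unchanged. The series value table held the same log2 ratios, with a largest difference of 0.

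Control spots were left out. The background limit of a channel was the median of the Empty spots plus 3 scaled median absolute deviations (factor 1.4826). Names other than the matrix names were updated to current symbols of GRCm38.p6, and spots of a name were averaged. A call needed a log2 ratio of at least 1 in size on both arrays. Calls were tested on simulated data. The simulated noise came from the spread of these 2 arrays and held no difference between animals. Alternatives used limma 3.58.1 in R 4.3.3; tables were summarised with Python 3.11.15 and pandas 2.3.3. Intensities under 1 were set to 1 there, and saturation was 98% of a channel's highest value. The number of arrays limits the precision.

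The matrix genes, the lists and the background rule were chosen with earlier results of these data known. Every measured matrix gene is named. Full intensities were due for genes with a mean of at least 0.4 in size, with arrays of opposite sign over 0.5 apart, or with spots of opposite sign, and for Col4a1 and Col4a2. Bgn, Nid1, Sparc, Col8a2, Col4a5, Thbs2 and Col19a1 were added after their values were seen. From each list of related genes, the 3 with the largest ratio of the same sign on both arrays are named, and other list genes were added after their values were seen. Some list genes are not reported here by name.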

Additional observations from a re-analysis of the deposited data

How the results depend on the processing

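Of 25 measured matrix genes, 15 kept the sign of their ratio in every alternative that gave a value, Col3a1, Col6a1, Col6a2, Thbs4, Thbs1, Bgn, Nid1, Sparc and Col8a2 among them, and 10 changed sign in at least 1, mostly on a single array. For a gene with 1 spot, the series values, filters, probe rules and print blocks return the same value or none. Only the other normalizations and the single arrays could change its sign. On single arrays, keeping the sign repeats the condition of the same sign on both arrays, so it is no separate check. Col3a1 ranged from 0.71 to 0.88 and Col6a1 from 0.66 to 0.79. With a call at 0.5 in log2 size, 3 matrix genes and 242 of all genes passed, and by sign alone 16 and 5326. Without the background filter 1 matrix gene was called (Col19a1) and 309 genes in all, the fibrillar median over 6 genes was 0.19 in place of 0.78, and the basement membrane median over 9 genes was -0.059 in place of 0.20; dropping the filter adds only spots that failed it. With all 4 channels required above background 47 genes were called, and with the 95th percentile of the Empty spots as limit 50, against 81. Raw ratios gave Col3a1, the lone fibrillar gene, 0.88. Without the 4 print blocks with signal in Empty spots the basement membrane median was 0.0059, since Col7a1 drops out. With either array alone 140 genes were called in all, the median of all matrix genes ranged from 0.085 to 0.24, that of the other class from 0.0397 to 0.24, that of basement membrane genes from 0.072 to 0.26 and Col3a1 from 0.71 to 0.85. No matrix gene was called under the other normalizations, limits or probe rules, or on either array alone. No paired analysis was possible because there is 1 comparison and both arrays were counted as 1 replicate. Dim spots limit the rest: 24 of 49 matrix genes gave no usable ratio.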
